A study of Homo sapiens with 6 samples.

Results

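The genes described here maintain mitochondrial DNA, transcribe it, and process, modify, stabilise or degrade its RNA. They were chosen by symbol from a list of 52 names, and all 52 were found among the 54628 gene symbols of the count files. Messenger RNA was sequenced from U87, an established human glioblastoma cell line, after co-culture and flow cytometric sorting. The sort gave cycling U87 cells that had received mitochondria (received, n = 3 libraries) and cycling U87 cells from the same system that had not (not received, n = 3), and the series title names astrocytes as the source of the mitochondria. The labels give no treatment, time point or genotype, and neither the species of the astrocytes nor the dye or tag used for the sort. Both groups are 1 cell line, and nothing says that the libraries of a group came from separate cultures, so every p-value measures only the spread between these samples, which may be technical.

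Mitochondrial DNA is a small circle of which each cell holds many copies, and all proteins that copy and read it come from nuclear genes. A single-subunit RNA polymerase makes long transcripts from both strands, nucleases cut out the tRNAs and so release the mRNAs and rRNAs, and RNA-binding proteins then protect or destroy each product. The nuclear factors NRF1, GABPA and ESRRA and the coactivators of the PGC-1 family are known to act on the promoters of many of these genes. Glioma cells can take up mitochondria from neighbouring astrocytes, which is the setting of the series.

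Totals ran from 17879552 to 46392491 counts per library, and the deepest library, not-received replicate 2, stood apart from the other 5 on the first principal component (-44.43, against -14.76 and -13.83 in the other not-received libraries). The sorted cells carried the glioblastoma line markers VIM, NES, CD44, FN1 and TNC in every library, with VIM and NES called higher and CD44 lower in received cells. Of 8 astrocyte markers, AQP4, ALDH1L1 and GJB6 had no count in any library, and the summed level of the list was 71.2 to 82.4 CPM (counts scaled to a common library size) in received and 84.3 to 93.9 CPM in not-received libraries, nearly all of it SLC1A3 and ALDOC. GFAP, the defining astrocyte filament gene, stood at 0.215 to 0.598 CPM. Among markers of other cells, PTPRC reached at most 0.107 CPM, while CD68, a lysosomal glycoprotein gene used as a macrophage marker, stood at 472 to 488 CPM in received and 349 to 390 CPM in not-received libraries. The part of these marker differences in the results below was not tested. In bulk libraries such as these, fewer cells that express a gene and less of its RNA per cell cannot be told apart.

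In cells that had received mitochondria, 7 genes from 4 of the 6 roles stood slightly higher, and none of the RNA modification genes or nuclear regulators was called. They were POLG2 and LIG3 of replication, POLRMT and TFB1M of the transcription group, PRORP of RNA cleavage, and PTCD2 and FASTKD3 of RNA stability. A single member, FASTKD5, stood lower. Of 50 members that passed the filter on low counts, edgeR's quasi-likelihood test called 7 higher and 1 lower at an adjusted p under 0.05, that is 14.0% and 2.0%. Over all 14100 genes tested, 9.21% were called higher and 9.67% lower, so the share that rose was near the background. In either direction 18.9% were called. With so few genes, 0 calls among 8 RNA modification genes and 6 nuclear regulators do not set these roles apart. The changes were small, from 1.26-fold to 1.31-fold among the 7 that rose, and FASTKD5 stood at 0.774 of its not-received level. The median log2 fold change of the 50 members was 0.13, against 0.00 (-0.0012) over all genes tested, and 36 of the 50 values were above 0. Received libraries lay wholly above not-received libraries in 15 of 50 members (30.0%), where the share over all genes tested was 19.5%. Counting both directions, 16 of 50 members did not overlap, against 39.0% of all genes tested, so the members did not stand above the background in that count.

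**Figure D1:**
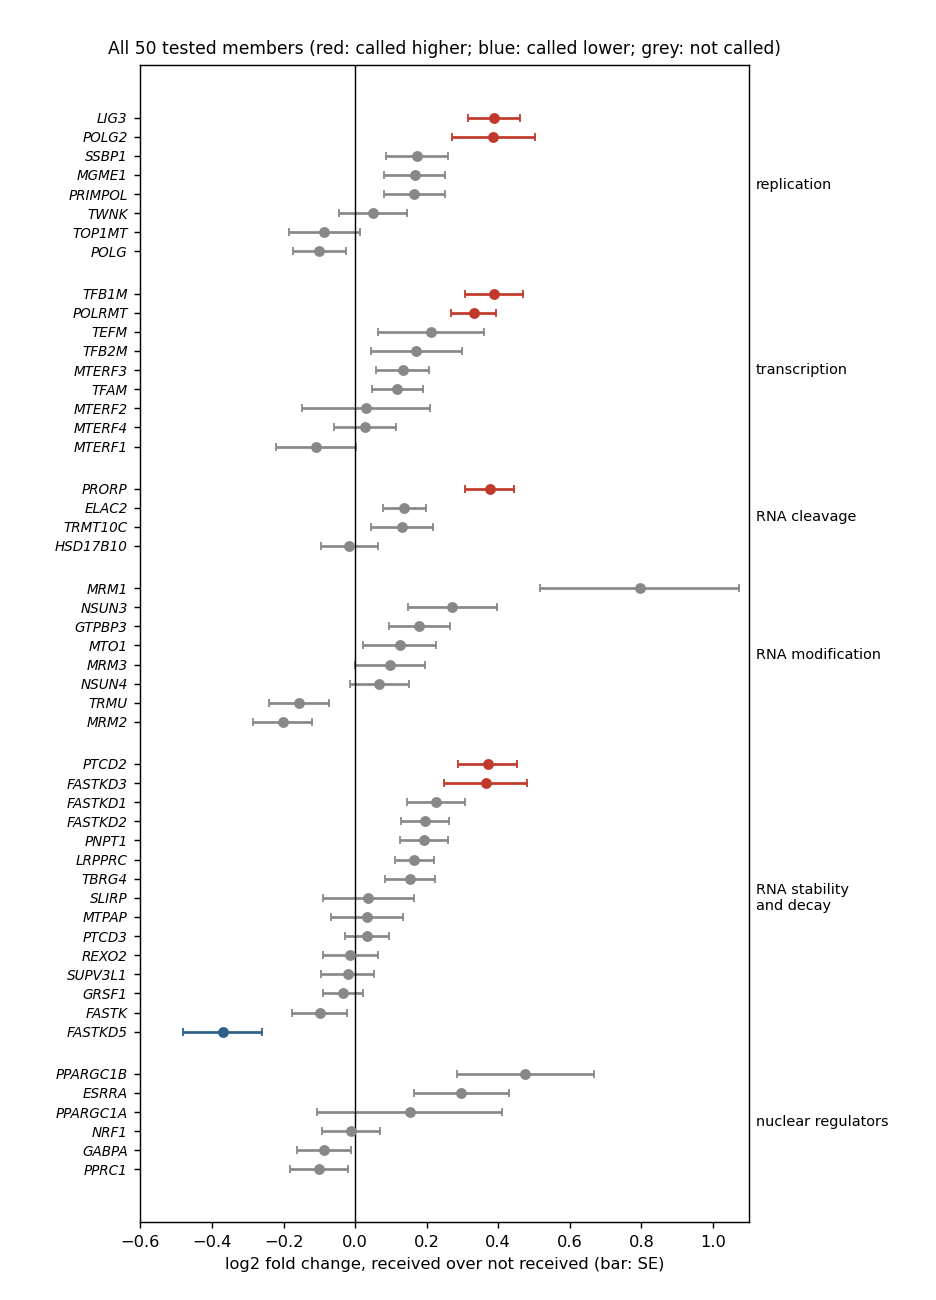
Log2 fold change, received over not received, of the 50 tested members (point) with its SE (bar), sorted within each role; red and blue mark members called higher and lower by edgeR, grey those not called. The 7 called higher lie between 0.33 and 0.39, FASTKD5 lies at -0.37, and the largest value, that of MRM1, has the widest bar.

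The promoters of 3 of the 7 genes that rose are shown first, picked because each held both of the sequence cores described below. The RefSeq promoter table (build GRCh38.p14) held windows of 250 bases before to 50 bases after the start for 46 of the 52 members. Both strands were searched for the core GCGCATG of the NRF1 motif and for the core CCGGAAG of ETS factors, the family of GABPA. POLRMT, TFB1M and POLG2 held both cores, and LIG3, shown for contrast, held neither. PRORP, PTCD2 and FASTKD3, which also rose, likewise held neither core. The 4 sequences shown were picked after the values were seen, and MRM1, which also held both cores and was not called, is not shown. Each line gives the 150 bases before the start on the gene's own strand, and capitals mark the NRF1 and ETS cores on either strand.

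POLRMT, chr19:633538-633687, minus strand: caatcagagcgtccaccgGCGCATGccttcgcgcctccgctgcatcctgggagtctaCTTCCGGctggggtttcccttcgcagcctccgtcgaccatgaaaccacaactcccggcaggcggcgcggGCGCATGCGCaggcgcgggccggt
TFB1M, chr6:155314485-155314634, minus strand: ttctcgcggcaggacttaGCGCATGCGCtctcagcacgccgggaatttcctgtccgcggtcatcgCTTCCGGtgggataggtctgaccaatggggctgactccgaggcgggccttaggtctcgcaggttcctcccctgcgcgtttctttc
POLG2, chr17:64497055-64497204, minus strand: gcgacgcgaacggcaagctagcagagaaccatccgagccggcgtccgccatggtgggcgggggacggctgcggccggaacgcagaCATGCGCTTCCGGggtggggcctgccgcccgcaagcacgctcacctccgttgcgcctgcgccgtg
LIG3, chr17:34980362-34980511, plus strand: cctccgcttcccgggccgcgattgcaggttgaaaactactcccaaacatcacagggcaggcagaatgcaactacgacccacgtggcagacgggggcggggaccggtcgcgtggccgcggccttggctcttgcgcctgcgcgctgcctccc

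In POLRMT and TFB1M the NRF1 core was present as the run GCGCATGCGC, in which the core on one strand overlaps its reverse complement CATGCGC, so 1 such run counts as a match on both strands. POLRMT held a further NRF1 core 132 to 126 bases before the start and an ETS core, in reverse, 93 to 87 bases before it. In POLG2 the reverse NRF1 core, 65 to 59 bases before the start, shared 1 base with the reverse ETS core at 59 to 53. Among the 46 members with a window, 8 (17.4%) held the NRF1 core, against 6.82% of 15843 protein-coding genes and 5.30% of all 27305 genes in the table. The ETS core was present in 16 members (34.8%), against 16.5% of protein-coding genes and 12.2% of all genes. Both cores together were present in 4 members (POLRMT, TFB1M, POLG2 and MRM1, 8.70%), against 1.41% of protein-coding genes. Of these 4, 3 were called higher and MRM1 was not called, where 9.21% of all genes tested were called higher. POLG2, which is among the called members with an NRF1 core, kept its call under only 7 of the 12 alternative settings. The AAGGTCA core bound by ESRRA was present in 3 of 46 members (6.52%, against 4.26% of protein-coding genes). The E-box CACGTG was present in 4 (8.70%, against 10.9%) and the GC box GGGCGG in 31 (67.4%, against 64.3%). The median log2 fold change was 0.31 in the 8 members with an NRF1 core and 0.13 in the 36 tested members without one. For the ETS core it was 0.15 in 16 with it and 0.16 in 28 without it. Among tested members, 3 of 8 with an NRF1 core and 4 of 36 without one were called higher. With either core 3 of 20 were called higher, and with neither core 4 of 24. These are descriptions of letters in a window, with no test, and not measurements of binding.

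**Figure D2:**
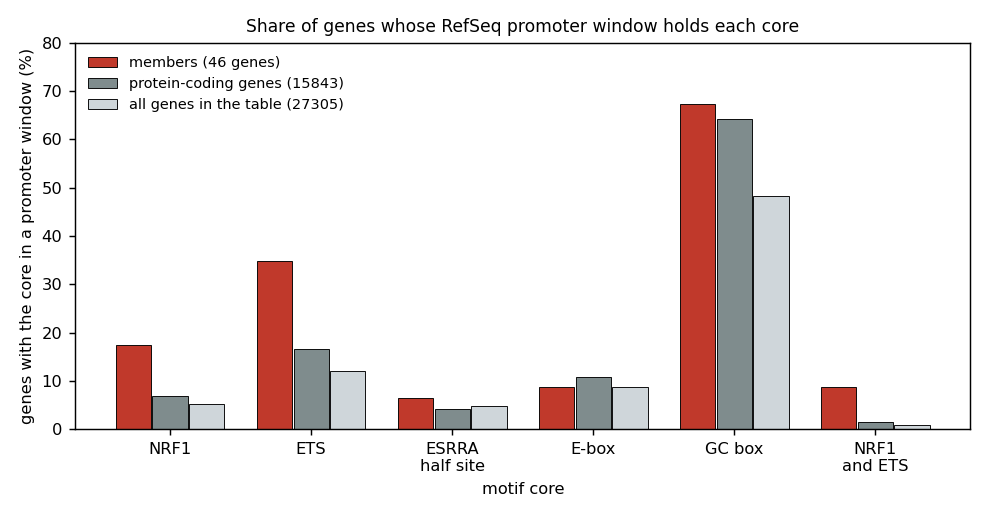
Percentage of genes whose RefSeq promoter window holds each motif core (y axis, from 0), for the members, for protein-coding genes and for all genes of the table. Against protein-coding genes, the members' bars are higher for the NRF1 core (17.4% against 6.82%) and the ETS core (34.8% against 16.5%), lower for the E-box (8.70% against 10.9%) and close for the GC box (67.4% against 64.3%).

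Replication came first in the order of roles. POLG2 encodes the accessory subunit of the mitochondrial DNA polymerase, which holds the enzyme on its template. It stood at 12.7, 13.8 and 13.6 CPM in received replicates 1, 2 and 3 and at 11.3, 10.6 and 8.77 CPM in not-received replicates 1, 2 and 3. The groups did not overlap, and not-received replicate 3 was the lowest library. The mean was 13.4 ± 0.630 CPM in received and 10.2 ± 1.30 CPM in not-received cells (SD, n = 3 each), 1.31-fold higher (log2 fold change 0.39 ± 0.12 SE, edgeR adjusted p = 0.0338). That call was lost without any 1 of the received libraries or without not-received replicate 3 (largest edgeR adjusted p 0.124), and by DESeq2 (adjusted p = 0.0635).

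LIG3, the DNA ligase that seals nicks in mitochondrial DNA and also serves in nuclear repair, gave the clearest difference of the replication genes. It stood at 37.9, 39.6 and 36.6 CPM in received replicates 1 to 3 and at 28.7, 29.9 and 28.5 CPM in not-received replicates 1 to 3. The gap between the groups was larger than the spread within either. The mean rose from 29.0 ± 0.789 to 38.0 ± 1.54 CPM, 1.31-fold (log2 fold change 0.39 ± 0.07 SE, edgeR adjusted p = 0.00267). Nuclear and mitochondrial forms of the ligase come from 1 gene and were counted together.

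The catalytic subunit gene POLG was not called. It stood at 79.3, 82.6 and 83.1 CPM in received and at 90.4, 94.1 and 77.6 CPM in not-received replicates 1 to 3, with not-received replicate 3 under all received libraries but the other two above them (log2 fold change -0.10 ± 0.07, edgeR adjusted p = 0.366). Within each library, the log2 ratio of POLG2 to POLG was -2.65, -2.58 and -2.61 in received and -3.001, -3.15 and -3.15 in not-received replicates 1 to 3. The groups did not overlap in this ratio, a comparison chosen after the values were seen and given with no test.

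TWNK, the helicase Twinkle that opens the fork, stood at 23.2, 24.2 and 25.3 CPM in received and 25.9, 24.0 and 20.2 CPM in not-received replicates 1 to 3. Its groups overlapped throughout. SSBP1, which coats single-stranded mitochondrial DNA, stood at 36.8, 38.6 and 35.8 CPM in received and 36.4, 29.4 and 33.2 CPM in not-received libraries (log2 fold change 0.17 ± 0.09, edgeR adjusted p = 0.176). The lowest value was that of not-received replicate 2, the library that stood apart. The other tested replication genes were not called. These were the exonuclease MGME1 (log2 fold change 0.17), the primase-polymerase PRIMPOL (0.17) and the topoisomerase TOP1MT (-0.09). TOP3A, the topoisomerase that separates finished circles, had 2, 2 and 1 counts in received and 5, 6 and 2 counts in not-received libraries, too few to test. Its head-to-head neighbour SMCR8 was at 0 counts in all libraries, and how reads were assigned is not given, so whether these counts reflect the level of TOP3A RNA is uncertain.

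Among the transcription genes, POLRMT, the mitochondrial RNA polymerase itself, rose. Received replicates 1 to 3 stood at 139.7, 133 and 146 CPM and not-received replicates 1 to 3 at 117, 111 and 105 CPM. Every received library lay above every not-received one. The mean was 139 ± 6.31 against 111 ± 6.16 CPM (SD, n = 3 each), 1.26-fold higher (log2 fold change 0.33 ± 0.06 SE, edgeR adjusted p = 0.00274).

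TFB1M, a relative of the transcription factor TFB2M that methylates the small rRNA of the mitochondrial ribosome, also rose. It stood at 41.4, 40.9 and 42.6 CPM in received and at 30.9, 29.6 and 35.1 CPM in not-received replicates 1 to 3. The received libraries lay within 2 CPM of each other and above all others. The mean was 41.6 ± 0.850 against 31.9 ± 2.87 CPM, 1.31-fold higher (log2 fold change 0.39 ± 0.08 SE, edgeR adjusted p = 0.00471).

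TFB2M, which melts the promoter for the polymerase, was not called. It stood at 22.9, 18.3 and 19.4 CPM in received and 20.8, 14.9 and 18.9 CPM in not-received replicates 1 to 3, with overlapping groups (log2 fold change 0.17 ± 0.13, edgeR adjusted p = 0.376). TFAM, which bends promoter DNA and packages the mitochondrial genome, stood at 61.6, 60.4 and 63.1 CPM in received and 52.7, 56.3 and 61.5 CPM in not-received libraries. One not-received library, replicate 3, reached the received range (log2 fold change 0.12 ± 0.07, edgeR adjusted p = 0.267). TEFM, the elongation factor, stood at 8.42, 9.23 and 9.06 CPM in received and 9.56, 6.65 and 7.05 CPM in not-received libraries. Its highest and its lowest value were both in the not-received group (log2 fold change 0.21 ± 0.15, edgeR adjusted p = 0.341). Log2 ratios within each library were also taken for TFB1M to TFB2M and for POLRMT to TFAM. The groups overlapped in both of these ratios, with mean differences, received minus not received, of 0.23 and 0.21, given with no test. The 4 genes of the MTERF family, which bind mitochondrial DNA or the ribosome and take part in termination and ribosome assembly, had log2 fold changes from -0.11 (MTERF1) to 0.13 (MTERF3). None of these 4 was called, and MTERF3 alone of them had groups that did not overlap. Reads of MTERF4 and of the overlapping gene SNED1, which was called lower (log2 fold change -1.49 ± 0.26), may not have been fully separated, since how reads were assigned to overlapping genes is not given.

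RNA cleavage was represented by 4 genes. Mitochondrial RNase P, which cuts at the front of each tRNA, is made of TRMT10C, HSD17B10 and the nuclease PRORP, and ELAC2 cuts at the rear. PRORP rose, with 61.7, 58.9 and 57.2 CPM in received and 43.9, 45.01 and 48.2 CPM in not-received replicates 1 to 3. The lowest received library stood clearly above the highest not-received one. The mean was 59.3 ± 2.29 against 45.7 ± 2.22 CPM, 1.30-fold higher (log2 fold change 0.38 ± 0.07 SE, edgeR adjusted p = 0.00238).

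The partner TRMT10C, a methyltransferase, stood at 31.1, 28.4 and 31.1 CPM in received and 28.2, 24.8 and 30.2 CPM in not-received libraries, with overlapping groups (log2 fold change 0.13 ± 0.09, edgeR adjusted p = 0.317). HSD17B10, the dehydrogenase of the complex, had a log2 fold change of -0.02 ± 0.08. The log2 ratio of PRORP to TRMT10C was 0.97 ± 0.0882 in received and 0.72 ± 0.118 in not-received cells (SD, n = 3 each), without overlap, and was not tested. PRORP was already without overlap and TRMT10C was not called, so the ratio mostly repeats the PRORP difference. It is no separate evidence on the make-up of the complex. ELAC2 stood at 127, 134 and 141 CPM in received and 124, 122 and 119 CPM in not-received replicates 1 to 3. Its groups did not overlap, but it was not called (edgeR adjusted p = 0.125, log2 fold change 0.14 ± 0.06).

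PRORP starts head to head with PPP2R3C, a phosphatase regulator gene that it also overlaps in the RefSeq gene table, and the counting of shared reads is not given. PPP2R3C was called higher by a like amount (log2 fold change 0.37 ± 0.10, edgeR adjusted p = 0.0218). PTCD2 likewise starts head to head with MRPS27, a mitochondrial ribosomal protein gene that was called higher (0.22 ± 0.06, edgeR adjusted p = 0.0215). Tested protein-coding neighbours that overlapped the other called genes were not called by edgeR. They were RFFL beside LIG3 (0.03 ± 0.16), MILR1 beside POLG2 (0.24 ± 0.11), MTRR beside FASTKD3 (-0.11 ± 0.07) and UBOX5 beside FASTKD5 (0.47 ± 0.16). CLDN20 and TIAM2, which overlap TFB1M, had too few counts to be tested. The neighbours were looked up after the members' values were known.

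None of the 8 RNA modification genes was called by edgeR, and 3 of them, MRM1, MRM2 and NSUN3, had an unadjusted p under 0.05. DESeq2 called 0 of the 8 and limma-voom 1, MRM1. These enzymes finish tRNA and rRNA. MTO1, GTPBP3 and TRMU modify the wobble base of tRNAs, NSUN3 and NSUN4 methylate cytosine in tRNA and rRNA, and MRM1, MRM2 and MRM3 methylate the large rRNA. MRM1 had the largest log2 fold change of all members, 0.80 ± 0.28, and few reads, at 2.56, 2.04 and 2.50 CPM in received and 1.79, 0.969 and 1.44 CPM in not-received replicates 1 to 3. Its groups did not overlap (edgeR adjusted p = 0.061). MRM2 had a log2 fold change of -0.20 ± 0.08 and TRMU of -0.16 ± 0.08, while the other 5 lay between 0.07 and 0.27. MRM1 was also called by edgeR without not-received replicate 1 (adjusted p = 0.0407), as was GTPBP3 (adjusted p = 0.0442), and MRM2 was called without not-received replicate 2 (adjusted p = 0.0137).

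In the group of RNA stability and decay, 2 of 15 tested genes rose and 1 fell. These are 13.3% and 6.67%, against 9.21% and 9.67% of all genes tested, so the count does not set this role apart. PTCD2, a pentatricopeptide repeat protein that takes part in maturing cytochrome b mRNA, stood at 25.3, 25.6 and 28.1 CPM in received and at 19.2, 20.6 and 21.2 CPM in not-received replicates 1 to 3. The groups were well apart. The mean was 26.4 ± 1.54 against 20.3 ± 1.06 CPM, 1.29-fold higher (log2 fold change 0.37 ± 0.08 SE, edgeR adjusted p = 0.00721).

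The FASTK family of RNA-binding proteins was uneven. FASTKD3 stood at 13.2, 17.2 and 14.95 CPM in received and at 10.6, 12.2 and 12.2 CPM in not-received replicates 1 to 3. The groups did not overlap, but received replicate 1 was close to the upper not-received libraries (1.29-fold, log2 fold change 0.36 ± 0.12, edgeR adjusted p = 0.0434). FASTKD5, which is needed to cut mRNA ends that no tRNA borders, stood at 9.12, 8.15 and 8.84 CPM in received and at 11.1, 10.9 and 11.8 CPM in not-received replicates 1 to 3. Every received library lay below every not-received one (8.70 ± 0.497 against 11.3 ± 0.461 CPM, log2 fold change -0.37 ± 0.11, edgeR adjusted p = 0.0324). Both calls were lost in most fits with 1 library left out, where calls over all genes mostly fell as well. The log2 fold change of FASTKD5 stayed between -0.40 and -0.32 under all 12 alternatives, and that of FASTKD3 between 0.27 and 0.46. FASTKD3 lost its call when received replicate 2 or 3, or not-received replicate 1 or 3, was left out (largest edgeR adjusted p 0.201), by DESeq2 (adjusted p = 0.0751) or by limma-voom (adjusted p = 0.0663). FASTKD5 was called in only 1 of the 6 fits with a library left out, that without not-received replicate 2 (edgeR adjusted p up to 0.140 in the others), and not by DESeq2 (adjusted p = 0.101). FASTKD5 lies within the locus of UBOX5, a ubiquitin ligase gene with 7.10 ± 0.760 CPM in received and 5.16 ± 0.717 CPM in not-received cells (log2 fold change 0.47 ± 0.16, edgeR adjusted p = 0.0556). How reads shared by these overlapping genes were assigned is not given, and the part of that in the lower FASTKD5 count was not tested. The log2 ratio of FASTKD3 to FASTKD5 was 0.54, 1.07 and 0.76 in received and -0.06, 0.16 and 0.05 in not-received libraries, given with no test. FASTKD3 lay wholly higher and FASTKD5 wholly lower in received libraries, so this ratio had to separate the groups. It adds nothing to those calls. FASTKD1 (0.23 ± 0.08) and FASTKD2 (0.20 ± 0.07) had groups that did not overlap and were not called (edgeR adjusted p = 0.068 and 0.058). TBRG4 (0.15 ± 0.07) and FASTK (-0.10 ± 0.08) were not called either.

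**Figure D3:**
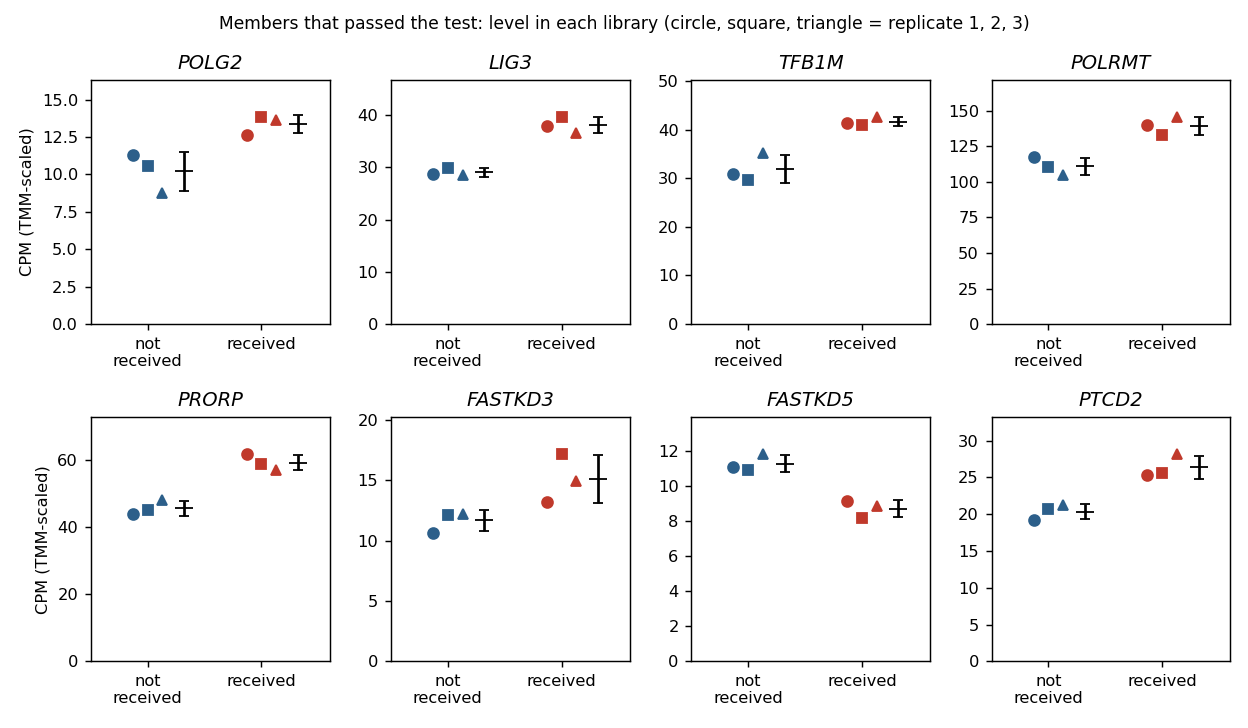
Level (TMM-scaled CPM, y axis from 0) of the 8 called members in each library; blue, not received; red, received; circle, square and triangle, replicates 1, 2 and 3; black, mean and SD (n = 3). The groups do not overlap in any of the 8 panels, and FASTKD5 alone is lower in received cells.

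LRPPRC and SLIRP form the complex that keeps mitochondrial mRNAs stable and polyadenylated. LRPPRC stood at 177, 174 and 175 CPM in received and at 153, 154 and 163 CPM in not-received replicates 1 to 3. The received libraries were nearly equal and above all others, yet the adjusted p was just over the threshold (log2 fold change 0.17 ± 0.05, edgeR adjusted p = 0.0503). It was called by DESeq2 (adjusted p = 0.0412) and without not-received replicate 2 or 3 (edgeR adjusted p = 0.0468 and 0.0382). SLIRP stood at 82.8, 59.4 and 73.8 CPM in received and 73.8, 61.8 and 75.9 CPM in not-received libraries. The spread within each group exceeded the difference between them (log2 fold change 0.04 ± 0.13, edgeR adjusted p = 0.869).

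The degradosome is built from PNPT1, an exoribonuclease, and SUPV3L1, the helicase that feeds it. PNPT1 stood at 62.3, 66.3 and 64.9 CPM in received and 58.8, 57.0 and 53.5 CPM in not-received replicates 1 to 3. Its groups did not overlap, and it was not called (edgeR adjusted p = 0.0593, log2 fold change 0.19 ± 0.07). Without not-received replicate 2 it was called (edgeR adjusted p = 0.041). SUPV3L1 stood at 37.6, 39.2 and 35.9 CPM in received and 39.1, 38.8 and 36.3 CPM in not-received libraries, with hardly any difference between the groups (-0.02 ± 0.07 on the log2 scale, edgeR adjusted p = 0.867). REXO2, which clears short RNA fragments, had a log2 fold change of -0.01 ± 0.08, the poly(A) polymerase MTPAP of 0.03 ± 0.10, the RNA granule protein GRSF1 of -0.03 ± 0.06 and the ribosomal protein PTCD3 of 0.03 ± 0.06. PTCD1 was not tested, with 1 to 3 counts in each library. The RefSeq table places it inside the readthrough gene ATP5MF-PTCD1, which was listed at 0 counts throughout, so its level here is uncertain.

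None of the 6 nuclear regulators was called by edgeR, and 1 of them, PPARGC1B, had an unadjusted p under 0.05. DESeq2 and limma-voom called 0 of the 6. NRF1 stood at 29.7, 25.9 and 25.8 CPM in received and 27.6, 26.7 and 27.9 CPM in not-received replicates 1 to 3, and the groups overlapped (log2 fold change -0.01 ± 0.08, edgeR adjusted p = 0.937). GABPA had a log2 fold change of -0.09 ± 0.08. ESRRA, an orphan nuclear receptor that works with the PGC-1 coactivators, stood at 67.3, 62.5 and 73.9 CPM in received and 66.9, 46.1 and 53.8 CPM in not-received libraries. Not-received replicate 1 lay within the received range (log2 fold change 0.30 ± 0.13, edgeR adjusted p = 0.157), and without it ESRRA was called (log2 fold change 0.45, edgeR adjusted p = 0.00761). ESRRA was called too without a low-count filter (edgeR adjusted p = 0.0013) and under the replicate block (edgeR adjusted p = 0.0301).

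PPARGC1A, the coactivator PGC-1 alpha, had few reads, 27 to 93 counts per library. It stood at 2.23, 2.63 and 1.95 CPM in received and 1.47, 2.05 and 2.59 CPM in not-received libraries (log2 fold change 0.15 ± 0.26, edgeR adjusted p = 0.716). PPARGC1B, its relative, had groups that did not overlap and was not called (edgeR adjusted p = 0.0977, log2 fold change 0.48 ± 0.19), but was called without not-received replicate 2 (edgeR adjusted p = 0.0147). PPRC1, the member of that family tied to growth signals, stood at 83.6, 94.5 and 92.2 CPM in received and 99.8, 104 and 85.0 CPM in not-received replicates 1 to 3. Its groups overlapped (log2 fold change -0.10 ± 0.08, edgeR adjusted p = 0.403).

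The calls differed in how far they depended on the setting. LIG3, TFB1M, POLRMT, PRORP and PTCD2 were called under all 12 alternatives, with edgeR adjusted p up to 0.0215, 0.0313, 0.0263, 0.0235 and 0.0471 when 1 library was left out. POLG2 was called under 7 of the 12, FASTKD3 under 6 and FASTKD5 under 5. Without not-received replicate 2, 10 members were called higher and 3 lower, and all 7 members called higher with 6 libraries were among the 10, beside LRPPRC, PNPT1 and PPARGC1B. FASTK and MRM2 were the further 2 called lower there.

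**Figure D4:**
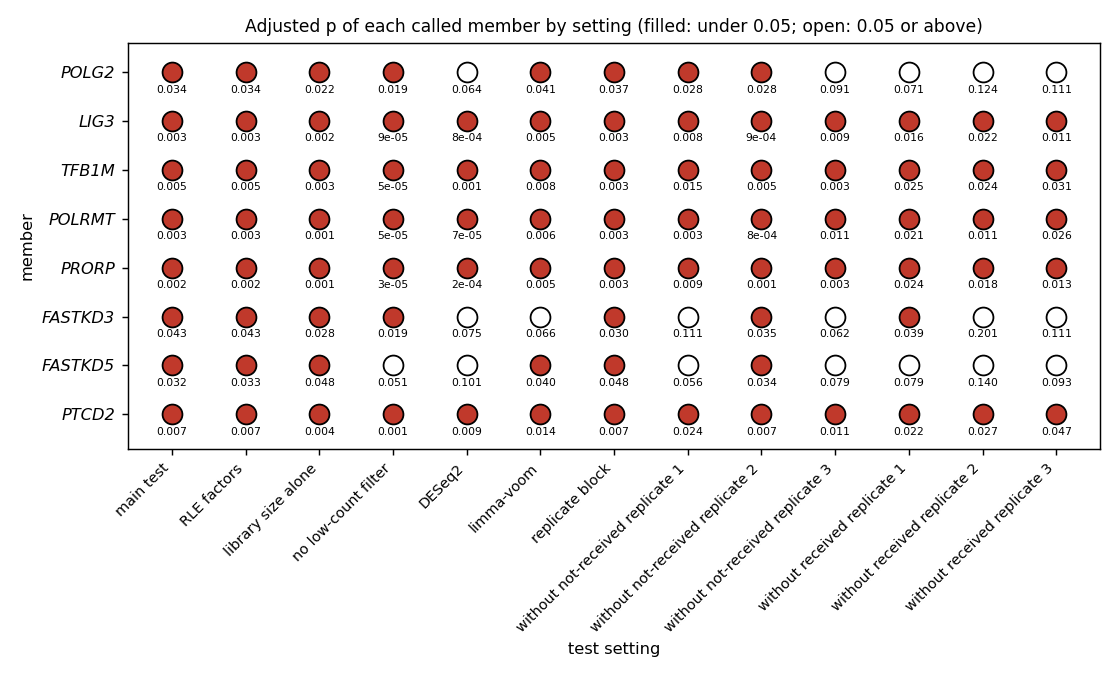
Adjusted p (number under each point) of the 8 called members (y axis) under each test setting (x axis); filled points lie under 0.05 and open points at or above it. LIG3, TFB1M, POLRMT, PRORP and PTCD2 are filled throughout, while POLG2, FASTKD3 and FASTKD5 open in 5, 6 and 7 settings.

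Further genes that serve mitochondrial DNA and its RNA were taken from a second list of 55, all of which were tested. Of these, 8 rose and 1 fell (14.5% and 1.82%, against 9.21% and 9.67% of all genes tested), and the median log2 fold change was 0.11. In nucleotide supply and upkeep of mitochondrial DNA 5 of 20 rose and 1 fell, in further RNA modification 2 of 22 rose, and in RNA granules and ribosome assembly 1 of 13 rose. The largest change among those called was that of OSGEPL1, which makes a threonyl modification next to the anticodon of mitochondrial tRNAs. It stood at 18.9 ± 0.221 CPM in received and 12.9 ± 0.746 CPM in not-received cells (log2 fold change 0.56 ± 0.09, edgeR adjusted p = 0.00115). The base excision glycosylases NTHL1 (0.53 ± 0.10) and MUTYH (0.33 ± 0.08), both of which also work in the nucleus, rose as well. So did RRM2B, the ribonucleotide reductase subunit that supplies nucleotides outside S phase (0.31 ± 0.08), the matrix protein C1QBP (0.30 ± 0.06) and METTL15, which methylates the small rRNA (0.28 ± 0.08). The gene that fell, named after its value was seen, was FEN1, a flap nuclease of nuclear and mitochondrial replication (-0.28 ± 0.06, edgeR adjusted p = 0.00403). The count of 8 was 4 without received replicate 1 or 3 and 5 without received replicate 2. Over all genes tested, those called higher also fell, from 1298 to 606, 604 and 661 without received replicate 1, 2 and 3.

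The RNA that this machinery makes was measured in the same libraries. The 13 mRNAs of mitochondrial DNA took 4.11%, 4.04% and 4.22% of counts in received and 4.54%, 5.75% and 4.96% in not-received replicates 1 to 3, so the groups did not overlap and received cells stood lower. RNR1 and RNR2, the rRNAs, took 0.593%, 0.570% and 0.530% in received and 0.422%, 0.488% and 0.522% in not-received libraries, and received cells stood higher. For each of these differences the exact permutation test over libraries, two-sided, gave p = 0.1, and 3 against 3 can reach no smaller value. By edgeR 8 of the 13 mRNAs were called lower and none higher, and neither rRNA was called. Over all genes tested, 9.67% were called lower and 9.21% higher. The 13 mRNAs are cut from shared long transcripts, so their calls are not independent of each other. CYTB, whose maturation involves PTCD2, stood at 1945, 1947 and 2025 CPM in received and 2811, 3484 and 2741 CPM in not-received libraries (log2 fold change -0.61 ± 0.08, edgeR adjusted p = 4.2e-04). The fall was not particular to CYTB. The other mRNAs called lower had log2 fold changes from -0.53 (ND3) to -0.28 (ND2), and ATP8, not called, stood at -0.82 ± 0.22. A link between PTCD2 and the CYTB level was not tested. The poly-T capture of RNA limits what the rRNA values can show. ND6 is the single mRNA made from the light strand, and its share of the 13 mRNAs was taken as a rough measure of strand balance. Poly-T capture may affect this share too. The strand setting is not given, so reads of RNA from the opposite strand may have been counted as ND6. The share therefore cannot settle the balance between strands. ND6 took 1.04%, 0.866% and 1.00% in received and 1.01%, 1.01% and 1.05% in not-received replicates 1 to 3. The groups overlapped (mean 0.969% ± 0.0910 against 1.02% ± 0.0227, with p = 0.4 in a two-sided exact permutation test over the 6 libraries). Received replicate 2 alone lay low, and without it the difference was -5.1e-05 percentage points. With the rRNAs added to the denominator the ND6 shares did not overlap, at 0.907%, 0.759% and 0.891% in received and 0.923%, 0.927% and 0.947% in not-received replicates 1 to 3 (p = 0.1 in the same exact permutation test, the smallest possible). That denominator includes the rRNA counts, whose share was higher in every received library. The part of this in the lower ND6 share was not tested. POLRMT stood higher, and the mRNAs of mitochondrial DNA lower, in the same received libraries. Whether transcripts from the donated mitochondria entered these counts was not tested.

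**Figure D5:**
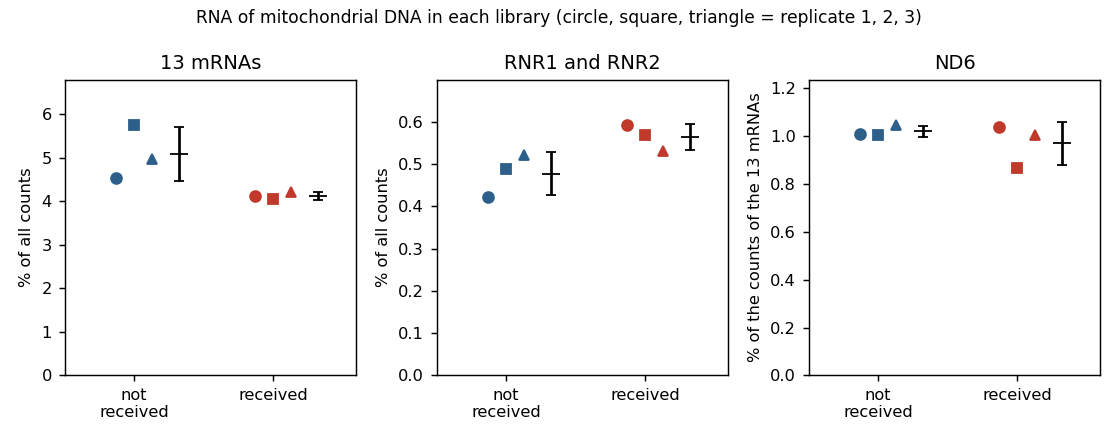
Share of all counts in the 13 mRNAs and in the rRNAs of mitochondrial DNA, and ND6 as a share of the 13 mRNAs, in each library (y axes in %, from 0; symbols as replicates 1, 2 and 3; black, mean and SD, n = 3). The mRNA share is lower and the rRNA share higher in every received library, while the ND6 shares of the 13 mRNAs overlap.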

How the data were processed

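The authors deposited 1 file of raw counts for each library, with 54628 gene symbols, no header and no normalization. Per the labels' protocols, RNA was captured on poly-T beads, primed with random hexamers and read as 150 bp pairs. DESeq and R 3.6.1 are named in the submitters' processing notes. For the aligner, counting program, build, annotation and strand setting, nothing is given in the sources used here. Genes were filtered with filterByExpr (14100 of 28833 with a count kept), scaled with TMM and tested with glmQLFit (robust) and glmQLFTest of edgeR 4.0.16 in R 4.3.3 in a model of group alone. P-values were adjusted by the Benjamini-Hochberg method over all genes tested, and an adjusted p under 0.05 is a call. SEs were taken as the size of the log2 fold change over the square root of F. CPM are TMM-scaled. A level of 3 counts, a floor that covers counting error only, stands for 0.0661 to 0.167 CPM.

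Libraries of a group differed from each other by more than sampling noise (chi-square of 3.40 to 20.6 per gene). Values in every library are given for each called member and for 18 members set in the rule for names. Up to 6 called genes of the second list, whose mean log2 CPM was 1 or more, are named by size of change. Members and lists were chosen with earlier results of these data known. Alternatives were RLE factors, library size alone, no filter, DESeq2 1.42.0, limma-voom (limma 3.58.1), a replicate block and leaving out each library. The steps were tested on simulated counts. Sequences and gene neighbours come from RefSeq tables of GRCh38.p14. No promoter window was used for TWNK, TOP1MT, MTERF3, MTO1, FASTKD5 and NRF1.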

Additional observations from a re-analysis of the deposited data

How the results depend on the processing

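Called members numbered 7 higher and 1 lower. The count of 7 was 7 with RLE factors, 11 with library size alone, 8 without a low-count filter, 6 by DESeq2, 7 by limma-voom and 5 to 10 with 1 library left out. Equal counts did not always hold the same genes. Of the 7, limma-voom kept 6, DESeq2 kept 5 and the fit without not-received replicate 3 kept 5. The 1 lower was 0 without a filter, 0 by DESeq2 and 0 to 3 with 1 library left out, 3 without not-received replicate 2 and 0 without any 1 of the other 5. Over all genes tested, 1298 were called higher with 6 libraries and 606, 604 and 661 without received replicate 1, 2 and 3. The count was 1060, 1356 and 1231 without not-received replicate 1, 2 and 3. Library size alone moved the median of all genes from -0.0012 to 0.036 and that of the members from 0.13 to 0.17, and the calls over all genes from 48.8% to 60.3% higher. The members' median was 0.094 without not-received replicate 2 and 0.094 to 0.14 with any 1 library left out. In the second list the 8 higher were 13 with library size alone and 4 to 11 with 1 library left out, and the 1 lower was 2 without a filter.

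The titles number the replicates, but nothing says whether a number marks a shared culture or day. Deviations of same-numbered libraries from their group means had correlations of -0.20, -0.07 and 0.05. With 3 libraries per group these values cannot decide whether the numbers pair the samples. With the replicate block, 8 members were called higher and 1 lower, and in the second list 9 and 1. The ND6 difference was -0.0516 percentage points with and without the block, -0.0802 with the rRNAs in the denominator, where the groups no longer overlapped (exact permutation p = 0.1 in place of 0.4), and from -0.0861 to -5.1e-05 with 1 library left out, nearest to 0 without received replicate 2.

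Of 288 refits of 24 named members, 251 kept direction and side of the threshold, 18 lost a call, 9 gained one and 10 changed sign, all 10 in members that were not called. Their log2 fold changes with 1 library left out ran from -0.039 to 0.12 for TWNK (sign changed without not-received replicate 3), -0.073 to 0.16 for SLIRP (-0.054 without not-received replicate 2, lowest without received replicate 1), -0.053 to 0.015 for SUPV3L1 (without received replicate 3), -0.079 to 0.028 for NRF1 (0.0017 without not-received replicate 3, 0.027 and 0.028 without received replicates 2 and 3) and -0.016 to 0.34 for PPARGC1A (without not-received replicate 1). With library size alone SUPV3L1 stood at 0.016 and NRF1 at 0.026.

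TOP3A and PTCD1, at or under 6 counts in every library, the deepest included, could not be tested, and the cause of these low counts was not tested. Low counts go with the wide error of MRM1 and PPARGC1A.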
